A study of Homo sapiens with 3 samples.

Results

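The ZNF genes, human genes named ZNF and a number because the encoded proteins carry zinc fingers, were followed through 3 lists of ribosome peaks, the places where ribosome-protected RNA fragments piled up. A gene was included when its symbol was ZNF followed by a number and it had at least 1 peak in any list, with each peak given to the gene of its annotated RefSeq transcript where the lists paired that transcript with a gene, and otherwise to the nearest gene. This gave 29 of the 3582 genes in the lists and 394 of the 46819 peaks. The fragments came from HEK293T, a human embryonic kidney line, transiently transfected for 24 h with empty pCDNA3.1 vector, with FLAG-tagged wild-type DDX3X (WT) or with FLAG-tagged DDX3X carrying G325E, an amino acid change of the RNA helicase that resembles one found in medulloblastoma. The cells of all 3 cultures also carry their own DDX3X gene. According to the labels all cells received harringtonine at 2 µg/ml for 90 s, which holds ribosomes at start codons, and then cycloheximide at 100 µg/ml, which stops elongation; the study's methods name cycloheximide only. Each construct had 1 library and no replicate, so no difference between constructs could be set against the spread between cultures, and no test between constructs was made. The comparisons bear on where ribosomes sit on mRNA when WT or G325E is expressed.

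A classical (C2H2) zinc finger is a short loop in which a pair of cysteines and a pair of histidines hold a zinc ion, and arrays of such fingers read DNA sequence. Most proteins of this family are transcription factors, and many carry a KRAB domain that recruits the corepressor TRIM28 to silence genes and transposable elements. A smaller number have quite different work: ZNF598 senses collided ribosomes, ZNF622 and ZNF593 take part in maturation of the large ribosomal subunit, and ZNF207 acts at kinetochores. A short KRAB pattern was found in the conceptual protein of 2 of the 29 members, ZNF713 and ZNF765. That count is too low, since it misses at least ZNF192 (now ZKSCAN8), whose current name stands for KRAB and SCAN domains. How many other KRAB genes the pattern misses was not tested. In 3 members (ZNF703, ZNF503 and ZNF259, now named ZPR1) the finger pattern used here was not found at all. Of the members 6 lie on chromosome 19 and 5 on chromosome 7.

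The lists held 11219 peaks in vector, 19920 in WT and 15680 in G325E, and gave neither heights nor counts for them. The number of peaks is no measure of sequencing depth, which is not in the lists. The study tabulates reads per library, by which WT had the most non-duplicated mapped reads and G325E the fewest, and those totals were not used here. The authors' peak numbers were incomplete by 14.8% in vector, 13.5% in WT and 0% in G325E, and whether the lists were filtered alike is not known, which bears on every comparison of presence with G325E below. Peaks shorter than 10 bp made up 10.8 to 11.8% of each list. DDX3X itself had 0 peaks in vector, 32 in WT and 9 in G325E, where transcripts of the construct and of the cell's own gene cannot be told apart. The labels call the cell type neuronal, but of 11 neuronal markers only TUBB3 was listed (8, 6 and 5 peaks), and of 8 genes of epithelia or of the HEK293 line 1, 4 and 2 were listed in vector, WT and G325E. Among these VIM had 18, 20 and 19 peaks, KRT8, KRT18 and CDH2 had 0 in vector, and CDH1, EPCAM, PAX2 and LHX1 had 0 in every list. Of the neurofilament genes NEFL and NEFM, which HEK293 cells are known to express, were listed and NEFH and INA were not.

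Short stretches of the human genome (GRCh37, the build of the lists) show the sequence at some of the peaks. The following are whole peaks in the coding sequence, printed 5′ to 3′ on the strand of the gene and chosen as the longest peak of 18 to 30 bases of that gene and list, to show the range from AT-rich to GC-rich peaks.
ZNF207, vector and WT, chr17:30687618-30687644 (plus strand, exon 4, codon 108): aagtcaaaaaaagaagcaacaagatga
ZNF771, vector, chr16:30419490-30419515 (plus strand, exon 2, codon 43): tcaagatccccatggacaacaaggag
ZNF503, vector and WT, chr10:77160059-77160087 (minus strand, exon 2, codon 125): tcgcagatcgggaagcccgacccctcgcc
ZNF598, WT, chr16:2048777-2048804 (minus strand, exon 13, codon 758): cgggagaggaaccttcagctcatccagt
ZNF598, vector, chr16:2059627-2059653 (minus strand, exon 2, codon 36): gctgcggagacctggaggccacggcgc
ZNF865, G325E, chr19:56125792-56125819 (plus strand, exon 2, codon 274): caccgccgctgccacaaggacgtgccac
Their own GC content ran from 29.6% for the ZNF207 peak to 77.8% for the ZNF598 vector peak. Start codons lay under a peak in 7 members, and 4 of them are printed from the start codon, in capitals, over 30 coding bases.
ZNF282, WT and G325E, chr7:148892682-148892711 (plus strand, exon 1): ATGcagtttgtgtcaacacggccgcagcct
ZNF593, WT and G325E, chr1:26496475-26496504 (plus strand, exon 1): ATGggtcgctcccgccggacaggcgcgcac
ZNF576, WT, chr19:44101261-44101290 (plus strand, exon 2): ATGgaggacccgaaccctgaagagaacatg
ZNF865, G325E, chr19:56124985-56125014 (plus strand, exon 2): ATGgaggcgaacccagcgggcagcggcgcc
The remaining start codons under a peak were those of ZNF783 in G325E, ZNF703 in vector and G325E, and ZNF706 in vector.

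Vector held 70 member peaks in 13 members, WT 169 in 24 and G325E 155 in 17. The number of members followed the size of the lists, which held 2023, 3007 and 2312 genes in all, and members were 0.643, 0.798 and 0.735% of them. As a share of all peaks this was 0.624% in vector (95% Wilson interval 0.494 to 0.788), 0.848% in WT (0.730 to 0.986) and 0.989% in G325E (0.845 to 1.16). The intervals, which cover counting error only, overlapped between vector and WT and between WT and G325E but not between vector and G325E. With peaks on a member's own transcript only they overlapped there too (0.385 to 0.648% in vector and 0.578 to 0.840% in G325E). ZNF703 and ZNF503 together held 37 of the 70 vector peaks, 41 of the 169 WT peaks and 52 of the 155 G325E peaks. The median member had 3, 5 and 7 peaks in vector, WT and G325E, beside 4, 5 and 6 for all genes. Member peaks had a median length of 28.5 bp in vector, 32 bp in WT and 37 bp in G325E, and peaks of all other genes 29, 29 and 30 bp. The longest member peaks were 187, 218 and 302 bp.

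**Figure D1:**
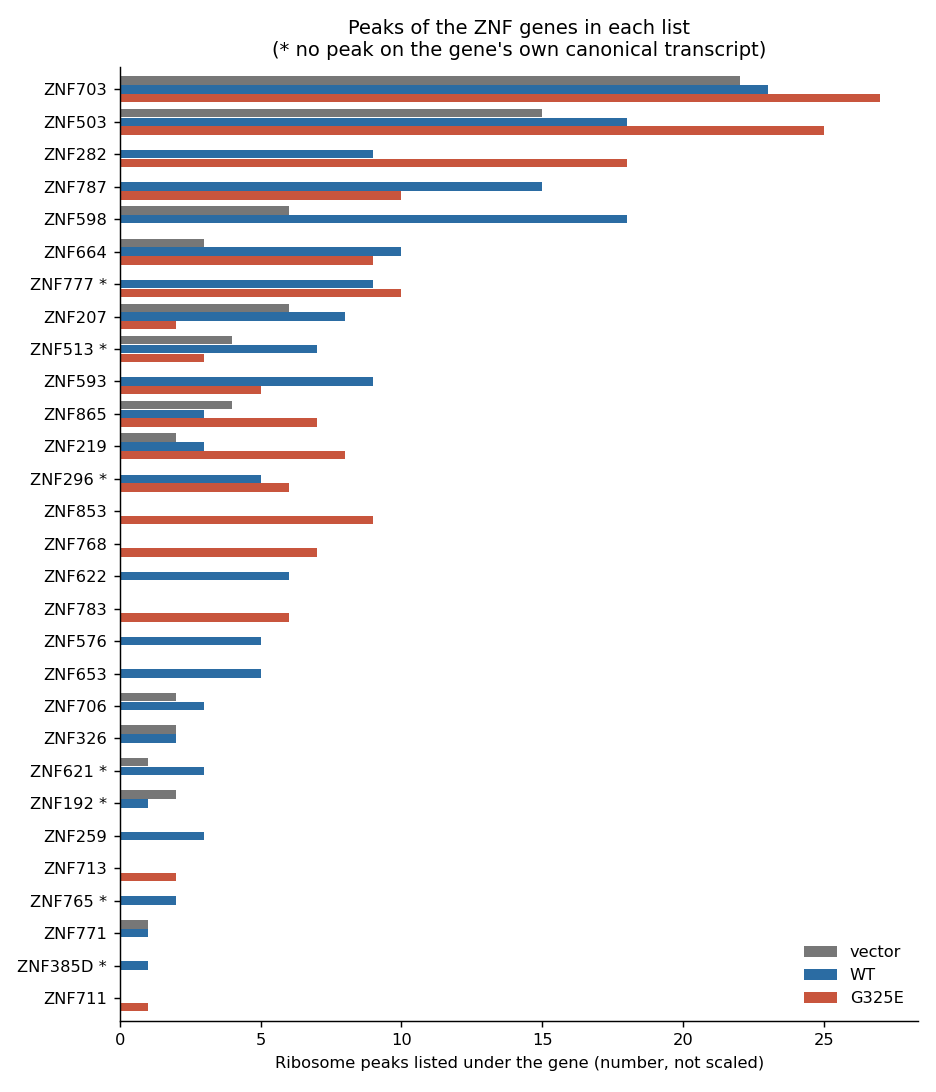
Number of ribosome peaks (x axis, not scaled for the size of the lists) listed under each of the 29 ZNF genes (y axis) in vector, WT and G325E, 1 library each. ZNF703 (22, 23 and 27 peaks) and ZNF503 (15, 18 and 25) have the most peaks summed over the lists, ZNF598 equals ZNF503 in WT (18), ZNF282, ZNF787, ZNF777, ZNF593 and ZNF296 have bars in WT and G325E only, and an asterisk marks the 7 genes none of whose peaks lay on their own transcript.

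The members fell into 5 patterns of presence across the lists. ZNF703, ZNF503, ZNF664, ZNF207, ZNF513, ZNF865 and ZNF219 had a peak in every list, which is 7 of 29 members (24.1%) beside 38.7% of all genes. ZNF282, ZNF787, ZNF777, ZNF593 and ZNF296 were in WT and G325E but not in vector (17.2% of members beside 11.2% of all genes). ZNF598, ZNF706, ZNF326, ZNF621, ZNF192 and ZNF771 were in vector and WT but not in G325E (20.7% beside 14.9%). WT alone listed ZNF622, ZNF576, ZNF653, ZNF259, ZNF765 and ZNF385D (20.7% beside 19.1%), and G325E alone listed ZNF853, ZNF768, ZNF783, ZNF713 and ZNF711 (17.2% beside 13.2%). No member was listed in vector alone, or in vector and G325E alone, which were the rarest patterns among all genes too (1.48% and 1.37%).

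The members were then set beside all genes in each pair of lists. Of the 29 members listed in WT or G325E, 12 (41.4%) were in WT and not in G325E, beside 34.5% of all genes listed in that pair, and 5 (17.2%) were in G325E and not in WT, beside 14.8%. Of the 23 listed in G325E or vector, 10 (43.5%) were in G325E and not in vector, beside 30.2%, and 6 (26.1%) were in vector and not in G325E, beside 20.2%. Of the 24 listed in WT or vector, 11 (45.8%) were in WT and not in vector, beside 34.9%, and 0 were in vector and not in WT, beside 3.28%. The comparisons with vector share the vector list, and WT, the longest list, had the most genes of every kind. With so few members each of these shares is set by a handful of genes, and the shares near the background are no result about the ZNF genes.

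Members listed in both samples of a pair were also compared by number of peaks, scaled to the same total. ZNF219 (2, 3 and 8 peaks in vector, WT and G325E), ZNF282 (0, 9 and 18) and ZNF865 (4, 3 and 7) reached at least 2-fold the scaled WT number in G325E, which is 3 of 12 members beside 20.6% of genes. ZNF207 (6, 8 and 2 peaks) was at 50% of the WT number or less, 1 of 12 members beside 10.6%. Against vector, ZNF219 and ZNF664 (3, 10 and 9 peaks) reached at least 2-fold in G325E, 2 of 7 members beside 11.1%, and ZNF207 was at 50% or less, 1 of 7 beside 19.9%. Between WT and vector, 0 of 13 members were at least 2-fold higher in WT, beside 5.78%, and ZNF192 and ZNF865 were at least 2-fold lower, 2 of 13 beside 20.4%. Strand changed some of these calls. On the gene's strand ZNF664 had 2, 5 and 3 peaks and was no longer called against vector (a scaled ratio of 1.15). ZNF865 had 1, 1 and 4 and was called there instead. ZNF598 (1, 16 and 0) was called higher in WT than in vector, 1 of 11 members tested. ZNF513 (3, 6 and 2) was called lower in G325E than in WT, which with ZNF207 made 2 of 11. All ZNF513 peaks on that strand lay in another gene, PPM1G. No member was called lower in WT than in vector. Without scaling, 3 of 13 members were at least 2-fold higher in WT, the longer list, than in vector. Shares of all genes are not given on the gene's strand or without scaling, so these further counts are no result about the ZNF genes. Most of these counts are under 10 peaks, and they have no replicate check.

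ZNF703 and ZNF503 encode the NET family of transcriptional corepressors, related proteins that act in embryonic patterning, and ZNF703 is an oncogene of luminal breast cancer. ZNF703 (chromosome 8) had 22 peaks in vector, 23 in WT and 27 in G325E, and ZNF503 (chr10:77157588-77161522, minus strand, 2 exons) had 15, 18 and 25. Per 10000 peaks of a list these were 19.6, 11.5 and 17.2 for ZNF703, and 13.4, 9.04 and 15.9 for ZNF503. Both were thus lowest in WT, the longest list, after scaling, and lowest in vector before it. In ZNF503 the coding peaks numbered 15 in vector, 17 in WT and 19 in G325E, and 5 of the 6 further G325E peaks lay between 134 and 613 bases upstream of the annotated start of the gene, within the antisense gene ZNF503-AS2. Of those 5 peaks 3 were on the strand of ZNF503-AS2. On the strand of the gene, peaks covered 32.8% of the ZNF503 coding bases in vector, 52.6% in WT and 44.5% in G325E, and 53.9, 49.6 and 76.3% of those of ZNF703. Midpoints in ZNF503 ran from codon 125 to 544 in vector, from 110 to 608 in WT and from 107 to 541 in G325E, with no peak in the first 10% of the 646 codons in any list. In ZNF703, 13 coding peaks ran from codon 44 to 566 in vector, 11 from codon 51 to 579 in WT and 14 from codon 20 to 560 in G325E. The same places recurred: 14 of the 15 vector peaks of ZNF503 overlapped a WT peak and all 15 a G325E peak, and of the 22 vector peaks of ZNF703, 19 overlapped a WT peak and 20 a G325E peak. Strand was ignored in these overlaps. The vector peak of ZNF503 on the opposite strand, at codon 484, met only peaks on the strand of the gene.

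Among the members linked to ribosomes, ZNF598 is the E3 ligase that ubiquitinates stalled, collided ribosomes (chr16:2047656-2059822, minus strand, 14 exons). It had 6 peaks in vector, 18 in WT and 0 in G325E, where 0 peaks allow up to 3. Its 6 vector peaks and 18 WT peaks did not overlap at any place. In vector, 2 coding peaks lay at codons 22 and 36, of which the former was on the opposite strand, and the other 4 were intronic or upstream and also on the opposite strand. In WT, 15 coding peaks ran from codon 316 to 883 of 904 on the strand of the gene and covered 27.9% of its coding bases, beside 0.996% in vector on that strand. The vector peaks averaged 81.7% GC and the WT peaks 66.1%.

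ZNF622, a late factor of 60S subunit maturation, had 0, 6 and 0 peaks in vector, WT and G325E (chr5:16451628-16465909, minus strand). The 6 WT peaks were all coding, between codons 84 and 196 of 477. ZNF593, which is related to a yeast factor of 60S subunit export, had 0, 9 and 5 peaks (chr1:26496399-26497364, plus strand, 3 exons). Of these, 3 in WT and 2 in G325E lay upstream of ZNF593, in the 3′-UTR of the gene ZNF593OS. Only 1 of these 5 was on the strand of ZNF593OS. In WT the 5 coding peaks of ZNF593 covered 83.1% of its 402 coding bases, and in G325E 3 coding peaks covered 49.3%, with 197 of those 198 bases covered in both. In this small gene 6 of the 8 coding peaks had bases that are also exonic in the gene ZNF593OS on the other strand, so identity of the transcript rests on the strand. ZNF259 (ZPR1), whose protein binds the elongation factor eEF1A, had 3 peaks in WT, at codons 227 to 267 of 459, and 0 in the other lists. ZNF598, ZNF622 and ZNF259 were thus without a peak in G325E, as were 34.5% of the genes listed in WT or G325E, and ZNF593 was not.

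ZNF207 (BuGZ, a kinetochore and spindle protein) had 6 peaks in vector, 8 in WT and 2 in G325E, every one of them coding and on the gene's strand (chr17:30677176-30708904, plus strand, 12 exons). All 6 vector peaks overlapped WT peaks, and both G325E peaks, at codons 150 and 160 of 494, overlapped peaks of vector and WT. The peak printed above, with a GC content at the lower end among member peaks (29.0% in the 31 bases at its midpoint), was in vector and WT and not in G325E. ZNF326, a subunit of the DBIRD complex that links transcription to splicing, had 2 coding peaks in vector, 2 overlapping ones in WT and 0 in G325E, with a mean GC content of 43.5% and 40.3%. ZNF706 (2, 3 and 0 peaks; 43.5% and 44.1% GC) and ZNF771 (1, 1 and 0; 48.4% GC in both) were alike in having overlapping peaks in vector and WT and none in G325E.

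Among the presumed DNA-binding factors, ZNF282 (chr7:148892638-148923329, plus strand, 8 exons), which binds a regulatory element of the leukaemia virus HTLV-1, had 0, 9 and 18 peaks. In WT 5 of its 6 coding peaks were in the first 50% of 671 codons, from codon 1 on, and the sixth was at codon 513. In G325E only 2 of 12 were in the first 50%, at codons 16 and 44, and the other 10 ran from codon 404 to 656 within the last exon, with 3 more peaks in the 3′-UTR behind them. Peaks covered 14.8% of the coding bases in WT and 38.6% in G325E, with 154 bases covered in both. In ZNF787 (chr19:56598732-56632664, minus strand, 3 exons), with 0, 15 and 10 peaks, the classes differed: WT had 6 coding, 6 intronic and 3 promoter-TSS peaks (near a transcription start site), and G325E 0 coding, 5 intronic and 5 promoter-TSS peaks. The coding peaks of WT covered 34.6% of the coding bases of ZNF787.

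**Figure D2:**
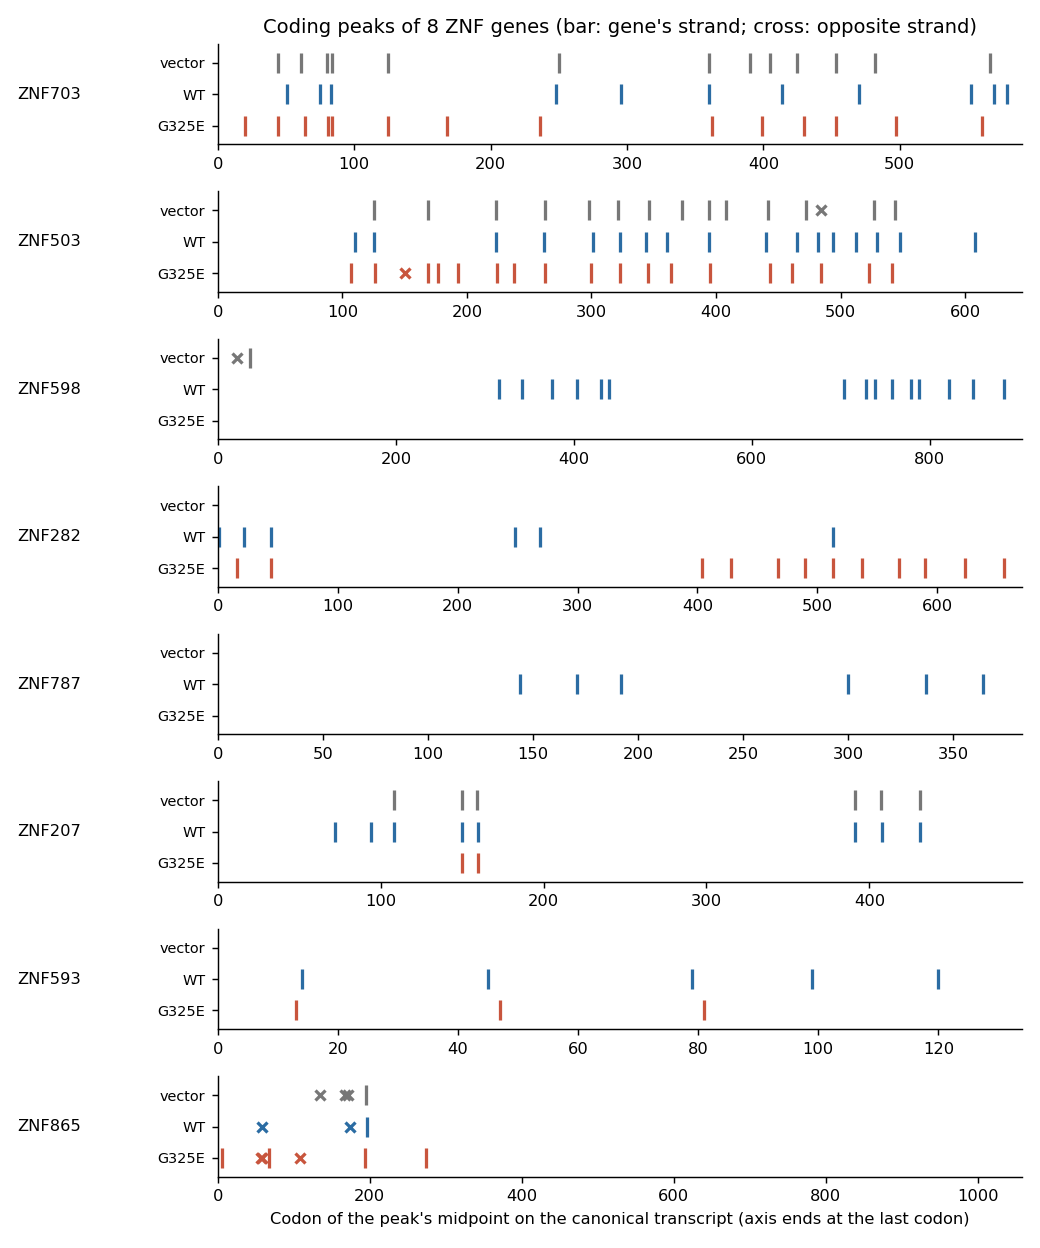
Position of coding peaks along 8 ZNF genes, as the codon of the peak's midpoint on the canonical transcript (x axis, ending at the last codon), with 1 line for each of vector, WT and G325E. Bars are peaks on the strand of the gene and crosses peaks on the opposite strand. ZNF703 and ZNF503 carry peaks at shared places in all 3 lists, ZNF598 has its 15 WT peaks between codons 316 and 883 and none in G325E, and ZNF282 has 10 of 12 G325E peaks from codon 404 on.

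ZNF865 (chr19:56117013-56128635, plus strand), with 20 finger patterns in 1059 codons, had 4, 3 and 7 peaks, all coding and all within the first 274 codons. Of these, 3 of 4 in vector, 2 of 3 in WT and 3 of 7 in G325E were on the opposite strand. ZNF219 (chr14:21558236-21566814, minus strand) had only promoter-TSS peaks, 2 in vector, 3 in WT and 8 in G325E, of which 0, 0 and 5 fell in its 5′-UTR and the rest in an intron. ZNF664 (chr12:124457762-124499974, plus strand) had 3, 10 and 9 peaks, none of them coding in any list. Among its promoter-TSS peaks 1 of 2 in vector, 3 of 7 in WT and 5 of 8 in G325E lay upstream of the annotated start, at 56 to 359 bases. ZNF576 and ZNF653 had 5 peaks each in WT and 0 in the other lists; 3 of those of ZNF576 were coding, at codons 12 to 29 of 170, and 1 of those of ZNF653 was.

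Members listed in G325E alone were described by few coding peaks. ZNF853 (chr7:6655241-6663921, plus strand) had 9 peaks, all promoter-TSS, 5 in its 5′-UTR and 4 upstream at 94 to 487 bases, with a mean GC content of 88.9%. ZNF768 (chr16:30535325-30537887, minus strand) had 7 peaks, of which 3 were coding, at codons 455 to 534 of 540, and 4 were in the 3′-UTR of the canonical transcript. ZNF783 (chr7:148959287-148982079, plus strand) had 6 peaks, 1 coding at codon 5 over the start codon, 1 in the 5′-UTR and 4 in an intron. ZNF713, a KRAB gene with 42.6% GC in its coding sequence, had 2 intronic peaks with a mean GC content of 98.4%. ZNF711, an X-linked intellectual disability gene, had 1 peak in its 5′-UTR. On the strand of the gene lay 5 of the 9 ZNF853 peaks, 5 of the 7 of ZNF768 and 5 of the 6 of ZNF783. The 5′-UTR peak of ZNF783 was on the opposite strand. For ZNF713 1 of 2 peaks was on the strand of the gene, and so was the ZNF711 peak.

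Not every peak listed under a member lay on that gene. When midpoints were placed on canonical transcripts, 243 of 394 (61.7%, 56.8 to 66.3) fell in an exon of the member itself, 42 in an intron, 52 in another protein-coding gene, 11 in a non-coding gene and 46 in no canonical transcript. All 19 peaks of ZNF777 lay in coding exons of ZNF746 (PARIS, a parkin substrate; chr7:149169885-149194900) on its strand, and the bases of none of them occurred in the coding sequence of ZNF777. The lists name no gene of their own for that RefSeq transcript, and the values given here for ZNF777 (0, 9 and 10 peaks) are thus read from ZNF746. A peak of G325E shows it, with the codons of the conserved linker between neighbouring fingers in capitals.
ZNF746, listed as ZNF777, G325E, chr7:149171788-149171816 (minus strand, exon 7): cacACCGGCGAGCGGCCCttcccctgcac
All 11 peaks of ZNF296 lay in CLASRP, a splicing-related gene, 9 of them in its coding sequence and all on its strand. Of the 14 peaks of ZNF513, 13 lay in PPM1G, a protein phosphatase gene, 10 of them in its coding sequence and 11 on its strand. Both ZNF765 peaks lay in ZNF525, 3 of 4 ZNF621 peaks in the pseudogene HMGN2P24, and all 3 ZNF192 peaks in non-coding genes. So did 2 of 5 ZNF653 peaks in ECSIT and 5 of 14 ZNF593 peaks in ZNF593OS. In all, 22 members had a peak on their own transcript and 7 did not (ZNF777, ZNF513, ZNF296, ZNF621, ZNF192, ZNF765 and ZNF385D).

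Member peaks had a larger share in the exon class than those of other genes in each list. The exon class held 45 of 70 peaks in vector (64.3%, 52.6 to 74.5), 105 of 169 in WT (62.1%, 54.6 to 69.1) and 75 of 155 in G325E (48.4%, 40.7 to 56.2), beside 49.4, 51.5 and 35.4% for other genes. ZNF703 and ZNF503 carried part of this: without them the exon share was 51.5% in vector (35.2 to 67.5), 60.2% in WT (51.5 to 68.2) and 40.8% in G325E (31.8 to 50.4). All these counts include exon peaks that lay on other genes. They were those of ZNF777 (9 in WT and 10 in G325E), ZNF296 (4 and 5) and ZNF513 (1 in vector and 3 in WT). The larger share thus describes peaks as listed and not the members' own exons. Promoter-TSS peaks made up 14 of 70 peaks in vector (20%, 12.3 to 30.8), 21.3% in WT (15.8 to 28.1) and 33.5% in G325E (26.6 to 41.3), and 23.0, 21.1 and 34.7% for other genes, so that G325E was highest for the ZNF genes and for the rest.

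**Figure D3:**
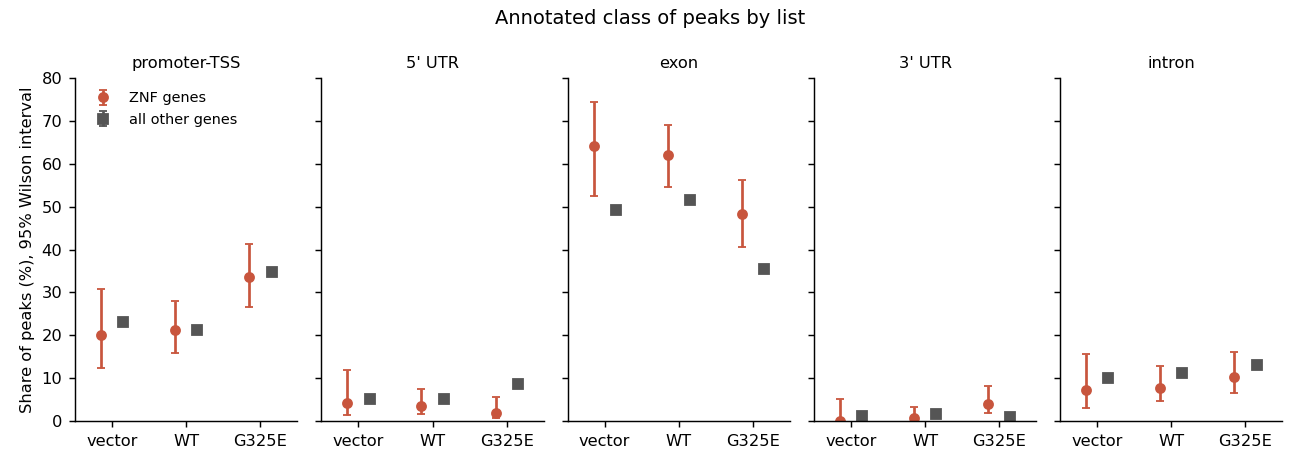
Share of peaks (y axis, percent) in 5 annotated classes for the ZNF genes (circles) and all other genes (squares) in vector, WT and G325E, with 95% Wilson intervals for counting error. Exon shares of the ZNF genes (64.3, 62.1 and 48.4%), which include listed peaks that lay on other genes, lie above those of other genes. The promoter-TSS share of both is highest in G325E (33.5 and 34.7%).

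The 5′-UTR share was taken over peaks in the 5′-UTR, exon (taken as coding) and 3′-UTR classes. For members it was 3 of 48 in vector (6.25%, 2.15 to 16.8), 6 of 112 in WT (5.36%, 2.48 to 11.2) and 3 of 84 in G325E (3.57%, 1.22 to 9.98). For all other genes it was 9.09, 8.88 and 19.4%. The difference between G325E and WT was -1.79 percentage points for members (Newcombe interval -8.08 to 5.24) and 10.5 for other genes (9.42 to 11.5), and that between G325E and vector -2.68 (-13.5 to 4.93) and 10.3 (9.10 to 11.4). Between WT and vector it was -0.89 points for members (-11.9 to 6.24) and -0.21 for other genes (-1.10 to 0.67). The member values rest on 3 to 6 peaks of the 5′-UTR class and on how that class is drawn, since the annotation assigns peaks near a start site to promoter-TSS first. With promoter-TSS counted as 5′-UTR, the members' share was 27.4% in vector, 28.2% in WT and 40.1% in G325E, and that of other genes 33.3, 31.2 and 52.0%. With regions of canonical transcripts, 4 of 49 member peaks in vector (8.16%, 3.22 to 19.2), 14 of 105 in WT (13.3%, 8.11 to 21.1) and 21 of 89 in G325E (23.6%, 15.98 to 33.4) were in a 5′-UTR, beside 14.0, 14.7 and 29.4% for other genes. Of these member peaks in a canonical 5′-UTR, 0 in vector, 4 in WT and 7 in G325E were on the opposite strand. On the gene's strand 4, 10 and 14 remained. They were 8.33% (3.29 to 19.6), 9.09% (5.01 to 15.9) and 15.1% (9.18 to 23.7) of same-strand peaks on own transcripts, introns included. The members that supplied the G325E peaks of a canonical 5′-UTR included ZNF219 and ZNF853 with 5 promoter-TSS peaks each, part of them on the opposite strand. Peaks of the 3′-UTR class numbered 0, 1 and 6, and the 6 in G325E came from ZNF282 and ZNF768.

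Along the coding sequence, member peaks had a mean position (0 at the start codon, 1 at the stop codon) of 0.46 ± 0.27 in vector (SD over 45 peaks), 0.50 ± 0.29 in WT (89 peaks) and 0.46 ± 0.31 in G325E (61 peaks). Other genes had means of 0.46, 0.47 and 0.37. The first 10% of the coding sequence held 6.67% of member coding peaks in vector (2.29 to 17.9), 7.87% in WT (3.86 to 15.4) and 16.4% in G325E (9.16 to 27.6), beside 15.8, 15.2 and 25.4% for other genes. ZNF503, with 0 such peaks in any list, and ZNF703 held these shares down: without both, they were 11.8% (3.29 to 34.3), 9.84% (4.59 to 19.8) and 28.6% (15.3 to 47.1). The G325E share was then 8 of 28 peaks, and its interval contained the share of other genes. Part of the 8 came from ZNF865, whose peaks at codons 57 and 58 were on the opposite strand.

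Fingers were located by their spacing of cysteine and histidine codons (a gap of 2 to 4 residues between the cysteines, 12 residues, and a gap of 3 to 5 between the histidines). The following stretches of 30 bases start at the first cysteine codon of a finger that held the midpoint of a coding peak, and show the repeat with both cysteine codons in capitals. They show the start of the finger and not the peak, which can cover few of the printed bases. No printed base of the ZNF282 stretch at codon 548 lay under a G325E peak.
ZNF282, G325E, chr7:148921281-148921310 (plus strand, codon 520): TGCcccgagTGCggcaagagcttcggcgtg
ZNF282, G325E, chr7:148921365-148921394 (plus strand, codon 548): TGCgctgagTGCgagaagagcttcaactgc
ZNF787, WT, chr19:56600058-56600087 (minus strand, codon 152): TGCcccgacTGCggccgcagcttcactcag
ZNF787, WT, chr19:56599668-56599697 (minus strand, codon 282): TGTctggagTGCgggaagggcttcgggcac
ZNF768, G325E, chr16:30535889-30535918 (minus strand, codon 515): TGCgatgacTGCggaaaggccttctcccag
Peaks inside fingers numbered 1 of 13 in vector (7.69%, 1.37 to 33.3), 8 of 56 in WT (14.3%, 7.42 to 25.7) and 7 of 25 in G325E (28.0%, 14.3 to 47.6) among members that have the pattern, counting coding peaks on the strand of the gene only. The fingers' share of the coding length of the same members, weighted by their peaks, was 16.5% in vector, 16.6% in WT and 22.0% in G325E, within each interval. With the 5′ end of the peak in place of its midpoint, 10 of 22 G325E peaks were in fingers (45.5%, 26.9 to 65.3), an interval above the length share of 21.7%. ZNF787 supplied 5 of the 8 WT peaks and ZNF282 4 of the 7 G325E peaks, whereas none of the 16 peaks of ZNF207 and none of those of ZNF598 fell in a finger. Because fingers repeat, the 31 bases at each coding midpoint were searched for in the exons of other genes: 8 of 195 peaks had an identical stretch elsewhere, 6 of them in ZNF593 and 1 each in ZNF653 and ZNF787, the last at codon 144 with a match in 3 genes.

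Of the 70 vector peaks of members, 56 (80%, 69.2 to 87.7) overlapped a WT peak by at least 1 bp and 64.3% (52.6 to 74.5) a G325E peak, beside 76.8 and 48.0% for other genes. Overlaps were counted whatever the strand. Of the WT peaks 33.1% overlapped a vector peak and 46.7% (39.4 to 54.3) a G325E peak, beside 41.7 and 34.8%. Of the G325E peaks 27.1% overlapped a vector peak and 49.7% a WT peak, beside 35.5 and 47.2%. ZNF703 and ZNF503 supplied 35 of the 45 vector peaks that overlapped G325E. In ZNF777 (read from ZNF746) 8 of 9 WT peaks overlapped a G325E peak, and in ZNF296 (read from CLASRP) all 5 did.

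On their own transcripts, members had 8 of 56 peaks on the opposite strand in vector (14.3%, 7.42 to 25.7), 10 of 120 in WT (8.33%, 4.59 to 14.7) and 16 of 109 in G325E (14.7%, 9.24 to 22.5). For other genes the shares were 8.04, 9.42 and 15.5%, inside the intervals of the members. A ribosome footprint of an mRNA is expected on the strand of its gene, and what these fragments are was not tested.

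Base composition moved with the lists. In the 31 bases at the midpoint, member peaks had a mean GC content of 69.7% ± 13.5 in vector (SD, 70 peaks), 66.7% ± 12.1 in WT (169 peaks) and 77.3% ± 11.1 in G325E (155 peaks), and other genes 62.6, 62.2 and 73.1%. In the exon class alone members had 67.2% ± 14.5, 64.6% ± 11.5 and 73.2% ± 10.5, and other genes 58.7, 58.0 and 67.5%. G325E was highest for both. The higher exon mean of members in vector rested on ZNF703 and ZNF503: without them it was 57.9% ± 18.4 (17 peaks), below that of other genes, and 63.0% ± 12.1 in WT (77 peaks) and 72.7% ± 11.6 in G325E (42 peaks). Members in vector and WT but not G325E had a median coding GC content of 48.2%, those in WT alone 53.5%, those in G325E alone 61.5%, those in WT and G325E 65.3% and those in all 3 lists 70.1%, with ranges that overlapped. These medians include the 7 members without a peak on their own transcript. Among them ZNF621 (47.4%) and ZNF192 (49.0%) are the middle values of the first group. The others are ZNF765 (39.6%) and ZNF385D (48.5%) in WT alone, ZNF777 (61.7%) and ZNF296 (67.7%) in WT and G325E, and ZNF513 (64.1%) in all 3 lists. For these members the coding GC content does not describe the listed peaks. The part of base composition in which members were listed was not tested.

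**Figure D4:**
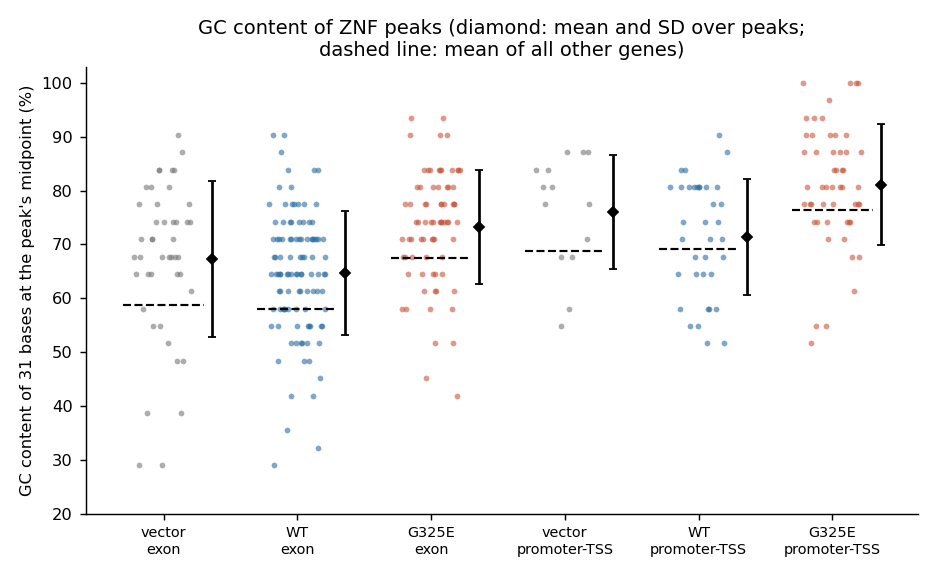
GC content (y axis, percent) of the 31 bases at the midpoint of each ZNF peak of the exon and promoter-TSS classes in vector, WT and G325E, 1 point a peak with sideways scatter added for visibility. Diamonds and bars are the mean and SD over the ZNF peaks, and dashed lines the mean of all other genes. The ZNF means of the exon class (67.2, 64.6 and 73.2%) lie above the dashed lines (58.7, 58.0 and 67.5%), which in vector does not hold without ZNF703 and ZNF503 (57.9%), and G325E is highest.

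The partners of KRAB zinc finger repression were counted from a list of 16 genes: 5 had a peak in vector, 9 in WT and 6 in G325E. TRIM28, the corepressor itself, had 25, 34 and 33 peaks. The heterochromatin proteins CBX3 (8, 12 and 7 peaks) and CBX1 (0, 4 and 8) and the deacetylases HDAC1 (11, 15 and 2) and HDAC2 (9, 13 and 13) were listed too. So was CHD3 (2, 1 and 7). HDAC1 was low in G325E, and CBX1 and CHD3 had their most peaks there. DNMT1 (7 peaks), DAXX (9) and CBX5 (5) were in WT alone, as were 19.1% of all genes in the lists. Of all genes with a peak in WT and in G325E, 10.6% were at least 2-fold lower in G325E and 20.6% at least 2-fold higher. With so few genes these counts are no result about the partners. The methyltransferase SETDB1 and 6 further partners were in no list.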

How the data were processed

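Ribosome peaks were analysed in 3 HEK293T libraries, 1 per construct, grouped by the titles and construct labels. The authors trimmed adapters, aligned reads with BWA (0.5.5 in the submitters' processing notes, which also name cutadapt without a version) to hg19, called peaks where coverage passed a cut-off in each sample separately, and refined, merged and reviewed them. The deposited lists have the layout of HOMER, whose version is not given in the sources used here. They hold position, strand, class and nearest gene, and no height or depth. Read totals per library are tabulated by the study and were not used here, and intervals cover counting error of peaks only.

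Shares were given with 95% Wilson intervals and differences with Newcombe's intervals. No test between constructs was made. A count of 0 was taken to allow up to 3 peaks. Members counted as called were listed in 1 sample of a pair only, or differed at least 2-fold after scaling to equal totals. Midpoints were placed on GENCODE release 44 canonical transcripts lifted to GRCh37. Sequences came from that genome. Older symbols (ZNF259, ZNF192) were matched through the gene tables provided. Position placing and scaling were checked on simulated data. Software was Python 3.11.15, pandas 2.3.3, numpy 2.4.6, scipy 1.17.1, statsmodels 0.14.6, pysam 0.24.0 and matplotlib 3.10.9.

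The members and gene lists were chosen with earlier results of these data known. Genes were named as the 12 members with the most peaks, members with a peak in every list, and members with at least 3 peaks in one list and 0 in another; other members named were chosen after their values were seen. Alternatives covered gene assignment, strand, region classes, peak length, weighting, GC content, scaling, overlap and finger pattern. Use of RefSeq names for transcripts that the lists leave unpaired, and of peaks on the member's own transcript only, was added after the data were seen.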

Additional observations from a re-analysis of the deposited data

How the results depend on the processing

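Of 138 recomputed values, 111 stayed within the interval, SD or 1.5 times the count given in the report, and 27 moved beyond it. The only differences among these values were those of the members' 5′-UTR share. Their intervals in the report all span 0, so no alternative could turn a difference whose interval left out 0. The sign of these differences changed in 10 of 33 recomputed values. The 5′-UTR share of G325E minus WT was 11.96 percentage points with promoter-TSS counted as 5′-UTR, 10.3 with regions of canonical transcripts, 8.96 with each member counted once and 1.02 with peaks of at least 20 bp; for G325E minus vector the former 3 were 12.7, 15.4 and 5.89. The cause of these shifts was not tested beyond the definitions themselves. By the Gene Name column alone, members held 0.718% of WT peaks, and with peaks on their own transcript only 0.604% of WT and 0.697% of G325E peaks, with 7 members listed in WT and not vector. At least 2-fold lower in G325E than in WT were 2 members without scaling, 2 with scaling by the median per-gene ratio and 2 on the gene's strand only. WT against vector gave 3, 3 and 1 members higher and 1, 1 and 0 lower under the same alternatives. Shares of all genes are not given under any of these alternatives, so these counts of members are no result about the ZNF genes. When an overlap had to span 50% of both peaks, shares fell to 57.1% (vector over WT), 45.7% (vector over G325E), 23.7% (WT over vector), 33.7% (WT over G325E), 20.6% (G325E over vector) and 36.8% (G325E over WT). With the strict finger pattern, fingers held 0% of vector and 7.14% of WT coding peaks, and with the 5′ end of the peak 45.5% of those of G325E. Peak lists without height limit all of this to presence and position, small members rest on 1 to 10 peaks, and no paired analysis was possible because each construct has 1 library.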

Other observations

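Further ZNF genes are read by the lists under other names. Where the annotated RefSeq transcript was looked up in the RefSeq gene table, 47 peaks moved to a ZNF gene: 19 to ZNF746 (from ZNF777), 10 to ZNF428 (listed as SRRM5), 7 to ZNF444 (as GALP), 7 to ZNF79 (as SNORA65) and 4 to ZNF384 (as ING4). In vector, WT and G325E, ZNF428 had 0, 5 and 5 peaks, ZNF444 0, 0 and 7, ZNF79 0, 7 and 0, and ZNF384 0, 4 and 0. They are not counted among the 29 members.

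Related C2H2 families were listed sparsely. ZIC5, a factor of neural development, had 12, 16 and 13 peaks in vector, WT and G325E, and its relative ZIC2 had 0, 12 and 36. Among the ZBTB genes ZBTB10 had 0, 10 and 22 peaks, ZBTB44 0, 0 and 11, ZBTB4 4, 9 and 0, and ZBTB47 1, 3 and 0. ZSCAN5A had 5, 5 and 4 peaks, and KLF6 and KLF9 had 5 each in WT alone. No ZFP or ZKSCAN symbol with a number appeared in the lists. These values have no replicate check.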
